A study of Mus musculus with 6 samples.

Results

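Promoters of zinc finger protein genes were followed across 3 culture surfaces in mouse lung fibroblasts. The members were the accessible regions that the deposited annotation places at a promoter (a transcription start site, TSS) of a gene whose symbol begins with Zfp, Zkscan or Zscan. In the table of 32 kPa against plastic, 367 of 64217 regions met this rule. They belonged to 311 genes and were 2.92% of the 12568 promoter regions in that table. The table of 0.2 kPa against 32 kPa held 16 members among 962 promoters and 2121 regions, and the table of 0.2 kPa against plastic held 32 members among 823 promoters and 2114 regions. RefSeq lists 427 protein-coding mouse genes with these prefixes, of which 305 had a member region and 122 had none. Symbols and not domains define the group: it also takes in the RNA-binding Zfp36 genes, 2 cofactors of GATA factors, 4 regions of pseudogenes and 3 of non-coding RNA genes, while zinc finger genes with other symbols are outside it.

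Primary lung fibroblasts of Col1a1-GFP transgenic mice were purified by their GFP signal, which marks cells that use the promoter of a type I collagen gene. They were grown for 8 days in 10% serum on polydimethylsiloxane (PDMS) of 0.2 kPa, on PDMS of 32 kPa or on tissue-culture plastic. Each surface had the same collagen I coating, with no further treatment. The sample labels give no stiffness for plastic, which is counted below as a stiffer culture. Plastic also differs from PDMS in material, so stiffness and material cannot be told apart where plastic is compared. Accessibility was read by Omni-ATAC-seq (tagging of open DNA by a transposase) from 50000 cells per library, with 2 libraries per culture. The title of the series names ZNF416, a human zinc finger protein, as a regulator of fibroblast mechano-activation. The sources do not give the age or sex of the mice, or say if libraries of 1 culture are from different animals, so the authors' p-values may measure only the spread between libraries.

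Most Zfp genes encode C2H2 proteins, in which a row of zinc fingers reads a stretch of DNA. Many carry a KRAB domain that recruits Trim28 and the histone methyltransferase Setdb1, and this complex silences retroelements and keeps imprints. The genes have multiplied by local duplication, so that many lie in clusters of near relatives. Others carry a SCAN domain, through which the proteins pair, and a few are transcription factors with no silencing domain.

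Each table gives 1 level per culture: the authors' mean of normalised reads of its 2 libraries on a log2 scale, with no value per library. No SD can therefore be given, and the depth is unknown. Levels were not divided by region length, so widths are given where regions are set side by side. A region is called listed for 32 kPa or for plastic if it overlaps a region in the deposited table of that culture against 0.2 kPa. Every row of both tables was higher on the stiffer culture, by at least 1 on the log2 scale at a false discovery rate (FDR) of at most 0.05. Regions lower on the stiffer culture, and levels on 0.2 kPa of unlisted regions, were not analysed here. In a bulk library, fewer open cells and less opening per cell cannot be told apart.

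The labelled cell type was checked at marker promoters. Of 8 fibroblast markers 7 had a promoter region (all but Lum), with levels of 3.76 to 6.14 on 32 kPa. The 4 epithelial and 3 leukocyte markers had none, and of 3 endothelial markers Kdr alone had one, at 3.08 on 32 kPa and 3.02 on plastic. Counting any region nearest to a marker, 3 of 4 epithelial markers had one (up to 5.88 on 32 kPa), as did all 3 endothelial markers (up to 6.91), 1 leukocyte marker (up to 3.92) and all 8 fibroblast markers (up to 6.66). The part of other cell types in the results was not tested.

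The promoters of 6 of the 8 genes in both lists, and those of the members with the lowest FDR for 32 kPa (Zfp637) and for plastic (Zfp869), are shown first, since they carry the calls that both comparisons share and the firmest single calls. Each line gives 150 bases that end 1 base before the TSS, 5′ to 3′ on the gene's strand, from RefSeq on GRCm38.p6, the same build as mm10. Capitals mark matches, on either strand, to the motifs searched below.
Zfp983: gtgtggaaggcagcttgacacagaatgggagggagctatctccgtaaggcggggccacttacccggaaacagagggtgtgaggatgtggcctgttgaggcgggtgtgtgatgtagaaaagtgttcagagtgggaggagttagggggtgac
Zfp821: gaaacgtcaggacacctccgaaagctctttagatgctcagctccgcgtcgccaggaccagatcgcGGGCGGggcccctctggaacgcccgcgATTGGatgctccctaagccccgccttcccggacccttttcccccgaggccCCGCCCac
Zfp661: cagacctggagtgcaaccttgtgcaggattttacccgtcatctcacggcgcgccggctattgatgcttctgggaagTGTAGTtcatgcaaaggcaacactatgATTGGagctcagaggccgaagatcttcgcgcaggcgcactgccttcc
Zfp169: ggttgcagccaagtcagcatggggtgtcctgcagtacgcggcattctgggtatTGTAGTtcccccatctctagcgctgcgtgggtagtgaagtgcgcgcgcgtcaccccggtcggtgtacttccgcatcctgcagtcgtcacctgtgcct
Zfp606: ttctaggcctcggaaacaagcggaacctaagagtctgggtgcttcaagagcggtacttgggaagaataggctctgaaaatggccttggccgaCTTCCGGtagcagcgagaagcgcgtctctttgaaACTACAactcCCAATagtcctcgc
Zfp81: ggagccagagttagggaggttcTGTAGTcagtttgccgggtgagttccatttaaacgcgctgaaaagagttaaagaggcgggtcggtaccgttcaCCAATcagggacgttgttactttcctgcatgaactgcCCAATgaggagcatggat
Zfp637: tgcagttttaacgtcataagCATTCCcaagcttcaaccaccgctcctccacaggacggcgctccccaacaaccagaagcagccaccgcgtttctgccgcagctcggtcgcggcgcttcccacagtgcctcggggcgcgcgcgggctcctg
Zfp869: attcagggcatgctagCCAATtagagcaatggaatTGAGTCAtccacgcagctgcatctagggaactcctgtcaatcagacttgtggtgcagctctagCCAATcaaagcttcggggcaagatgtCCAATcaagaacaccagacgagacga
These stretches lie at chr17:21650461-21650610 (plus strand) for Zfp983, chr8:109705358-109705507 (plus) for Zfp821, chr2:127584678-127584827 (minus) for Zfp661 and chr13:48513411-48513560 (minus) for Zfp169. Zfp606 lies at chr7:12478155-12478304 (plus), Zfp81 at chr17:33358879-33359028 (minus), Zfp637 at chr6:117841031-117841180 (plus) and Zfp869 at chr8:69716903-69717052 (minus). All 8 overlap the listed region, by 143 bases for Zfp606 and by the full 150 for the rest. Zfp169, Zfp606, Zfp661 and Zfp81 each hold ACTACA on one strand or the other, a core of the motif of Zfp143, itself a zinc finger activator. Zfp869 holds 3 CCAAT boxes, the site of NF-Y, Zfp81 holds 2, and Zfp606, Zfp661 and Zfp821 hold 1 each. Zfp821 also holds 2 GC boxes, the site of Sp and KLF factors. Zfp983 matched none of the motifs in these 150 bases.

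Against the soft 0.2 kPa surface, a small set of zinc finger promoters was listed as more accessible on 32 kPa. The 16 members listed belonged to 16 genes, and their differences in the authors' deposited table ran from 1 to 1.30 (log2), with a median of 1.14. Over the other promoters of that table the median was 1.08, and over all its regions 1.12. Members' levels ran from 4.31 to 6.05 on 0.2 kPa and from 5.48 to 7.10 on 32 kPa. The share of members listed was 4.36% (16 of 367), beside 7.79% of the 12201 other promoters, 7.69% of all promoters and 3.31% of all regions. The members' share was thus below that of other promoters and above that of all regions; neither difference was tested. At an FDR of 0.01 or below 8 members were listed (2.18%), beside 3.57% of other promoters, 3.53% of all promoters and 1.09% of all regions. At a difference of 1.2 or more the shares were nearly equal, with 4 members (1.09%) beside 1.14% of other promoters.

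Zfp983 led this list. In the authors' deposited table its promoter region (chr17:21650429-21650665, 64 bases upstream of the TSS) stood at 5.26 on 0.2 kPa and 6.57 on 32 kPa, a difference of 1.30 (2.46-fold, FDR 0.00424). Zfp46 followed, at 4.76 and 6.04 (1.28, FDR 0.00816) in that table, in a region 574 bases upstream. Zfp647 had 4.97 and 6.21 in the authors' deposited table (1.24, FDR 0.00808). All 3 were higher on 32 kPa by more than 1.2, which only 1 other member reached.

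That other member was Zfp521, a cofactor known for holding mesenchymal and blood progenitors back from differentiation. Its promoter stood at 5.56 on 0.2 kPa and 6.76 on 32 kPa in the authors' deposited table (1.2, FDR 0.00367). Zfp637 had the lowest FDR of the list, 0.00281, with 5.84 on 0.2 kPa and 6.96 on 32 kPa in the authors' deposited table (1.12). Zfp318, whose product is needed for IgD expression in B cells, stood at 5.23 and 6.36 there (1.13, FDR 0.0126). Zfp24, a SCAN-domain factor known from myelination, stood at 5.34 and 6.37 in the authors' deposited table (1.03, FDR 0.0159).

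The other listed promoters lay between 1 and 1.18. In the authors' deposited table Zfp397, Zfp661, Zfp169 and Zfp821 rose by 1.15 to 1.18 from levels of 4.31 to 4.67 on 0.2 kPa. Zfp112 (1.07), Zfp607b (1.05), Zfp606 (1.04) and Zfp81 (1.03) started higher in that table, between 5.21 and 6.05. Zfp389, the last of the 16, stood at 5.87 and 6.87 (1.0, FDR 0.00668) in the authors' deposited table. Of the 16 regions 13 were centred within 100 bases of the TSS. Their median distance was 68 bases, beside 62 for all members and 63 for other promoters.

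The list for plastic held more zinc finger promoters than the list for 32 kPa. It held 32 regions of 31 genes (8.72% of the 367 members), beside 6.49% of other promoters, 6.56% of all promoters and 3.3% of all regions. Here the members' share was above that of other promoters, again without a test of the difference. At an FDR of 0.01 or below 14 members were listed (3.81%), beside 3.11% of other promoters, 3.13% of all promoters and 1.08% of all regions. Members were 3.89% of the promoters in the plastic table and 1.66% of those in the 32 kPa table. Differences in the authors' deposited table ran from 1 to 1.41, with a median of 1.10 beside 1.08 for the other promoters there. Levels ran from 3.78 to 7.23 on 0.2 kPa and from 5.07 to 8.35 on plastic.

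**Figure D1:**
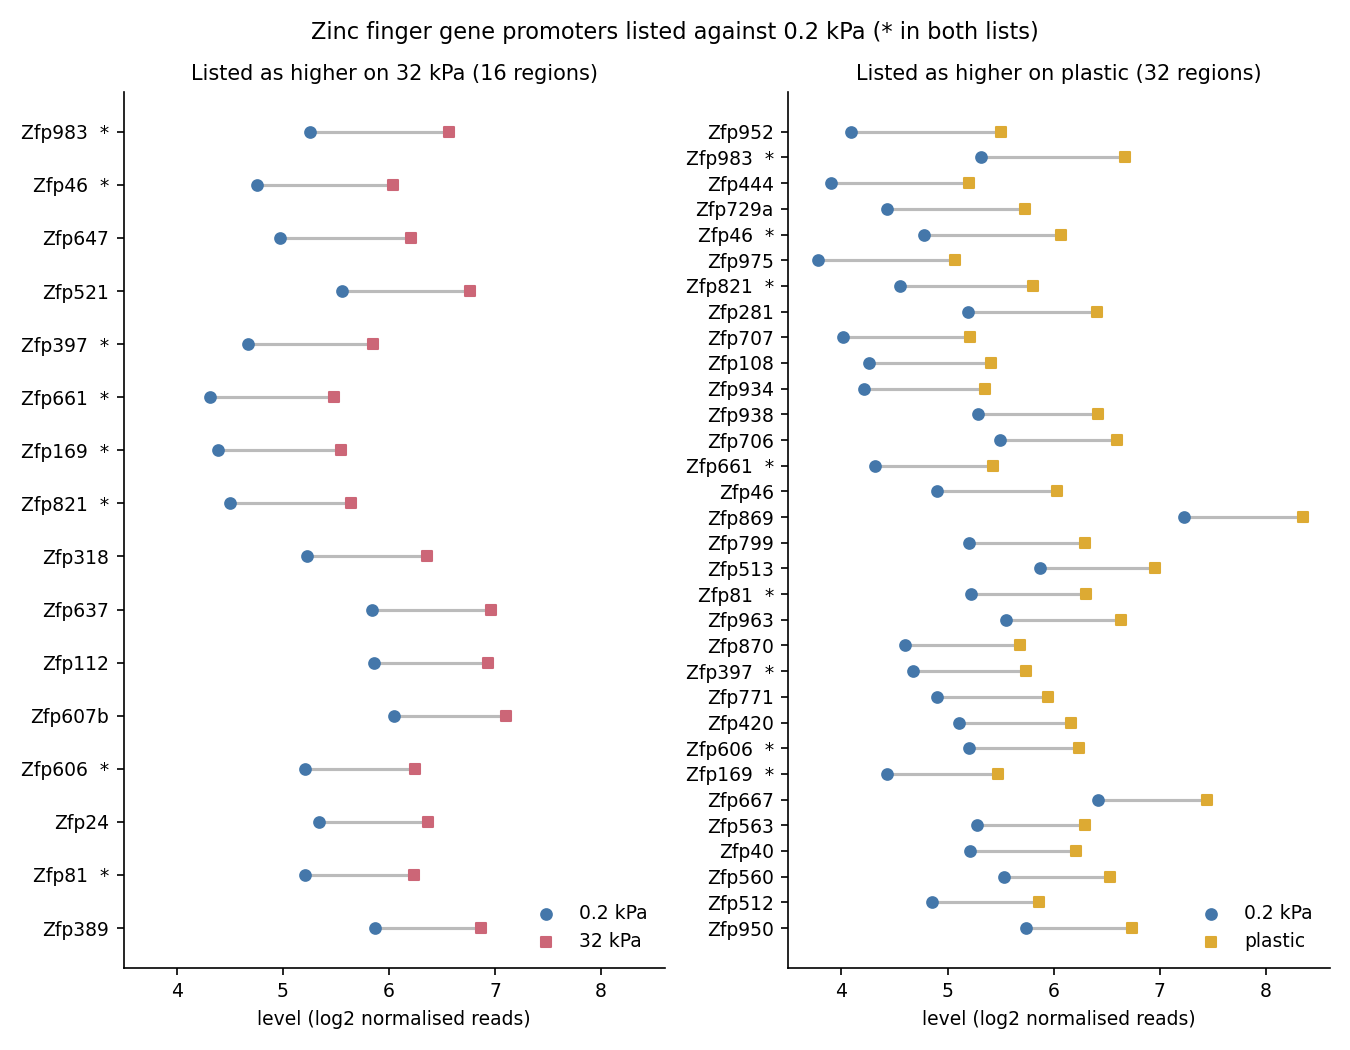
Levels of every listed zinc finger promoter region, with one panel for 32 kPa (16 regions) and one for plastic (32 regions). The horizontal axis is the authors' log2 mean of normalised reads; circles are 0.2 kPa, squares the stiffer culture, and an asterisk marks regions in both lists; each line joins 2 means, with no error available, and spans at least 1 log2 unit.

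Zfp952 had the largest difference on plastic: 4.09 on 0.2 kPa and 5.50 on plastic in the authors' deposited table (1.41, 2.66-fold, FDR 0.0125), in a region 24 bases upstream of its TSS. Zfp983 came next, at 5.31 and 6.67 in the authors' deposited table (1.36, FDR 0.000229). Zfp729a stood at 4.43 and 5.73 in the authors' deposited table (1.30, FDR 0.0109), and a region 878 bases upstream of Zfp444 at 3.90 and 5.20 (1.30, FDR 0.0413). The Zfp444 region is 119 bases wide and lies beside a stronger member of the same gene, 594 bases wide, at 8.03 on 32 kPa and 8.09 on plastic, which was not listed.

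Zfp281, a transcription factor studied in pluripotent cells, stood at 5.19 on 0.2 kPa and 6.41 on plastic in the authors' deposited table (1.22, FDR 0.00225). Zfp869 had the lowest FDR of all members, 7.1e-08, and the highest level of those listed, at 7.23 and 8.35 in the authors' deposited table (1.12). Zfp46 was the one gene with 2 listed regions: in the authors' deposited table the upstream one rose by 1.29, and one 66 bases past the TSS by 1.12 (4.90 and 6.03, FDR 0.0109).

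The next in order of difference in the authors' deposited table were Zfp975 (1.28), Zfp821 (1.25), Zfp707 (1.2), Zfp108 (1.15), Zfp934 (1.14), Zfp938 (1.13), Zfp706 (1.12) and Zfp661 (1.12). Their levels on 0.2 kPa ran from 3.78 for Zfp975 to 5.49 for Zfp706. In the authors' deposited table the FDR was 0.0472 for Zfp975 and 0.0489 for Zfp707, near the limit. The Zfp975 region is 215 bases wide and lies 792 bases upstream of the TSS. A stronger Zfp975 region nearer the TSS, 318 bases wide, at 6.71 on 32 kPa and 6.88 on plastic, was not listed. Of the 32 regions 27 were centred within 100 bases of the TSS. Their median distance was 54.5 bases, near the 62 of all members and the 63 of other promoters.

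The promoters of 8 genes, whose regions overlapped between the lists, were higher on both stiffer cultures: Zfp983, Zfp46, Zfp661, Zfp169, Zfp821, Zfp397, Zfp606 and Zfp81. They were 50% of the genes listed for 32 kPa and 25.8% of those listed for plastic. Counted as regions, 8 members were in both lists, of 16 listed for 32 kPa and 32 for plastic. Among other promoters 315 regions were in both, of 950 listed for 32 kPa and 792 for plastic. The difference in overlap was not tested. Both lists rest on the same 0.2 kPa libraries, so the values are set side by side. In the authors' deposited tables the differences for 32 kPa and plastic were 1.30 and 1.36 for Zfp983, 1.28 and 1.29 for Zfp46, and 1.17 and 1.12 for Zfp661. They were 1.16 and 1.04 for Zfp169, 1.15 and 1.25 for Zfp821, and 1.18 and 1.07 for Zfp397 in the authors' deposited tables. For Zfp606 they were 1.04 and 1.04, and for Zfp81 1.03 and 1.08, in the authors' deposited tables. Regions in both lists were 2.18% of members, 2.58% of other promoters, 2.57% of all promoters and 1.06% of all regions.

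Membership of a single list did not mean a low level on the other stiff culture. The 8 genes listed for 32 kPa alone were higher on plastic than on 0.2 kPa by 0.79 to 0.98 (median 0.90), from levels taken across the tables, so each fell short of 1. The 24 regions listed for plastic alone were higher on 32 kPa than on 0.2 kPa by 0.50 to 1.31 (median 0.88), and 4 of them reached 1. The largest of these, for Zfp963, sets a listed region of 289 bases beside one of 557 bases in the other table, so the regions are unlike; without it the range ended at 1.22 (median 0.85) and 3 reached 1. These differences use the 0.2 kPa level that also selected the regions, and carry no test.

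The share listed moved with the level of the region. In the tables against 0.2 kPa the lowest level of any region was 4.97 on 32 kPa and 4.94 on plastic. These lowest levels come from the listed regions themselves, and the level on the stiffer culture is part of the difference that decides listing. Small shares at low levels therefore follow in large part from the choice of regions. Above those levels 6.75% of members were listed for 32 kPa (16 of 237), beside 13.2% of other promoters, 13% of all promoters and 12.5% of all regions. For plastic it was 12.9% (32 of 248), beside 10.7%, 10.8% and 11.7%. Within bins of level on 32 kPa the 2 lowest bins held 0 listed members of 92 and of 76, too few for a comparison beside 0.0584% and 0.925% of others, and in the 3 upper bins the members' share was below the others'. From 6 to 6.75 it was 9.72% (7 of 72), beside 16.6%, and at 6.75 or more 10.2% (5 of 49), beside 21.9%. On plastic the members' share was above the others' in the 3 bins between 4.5 and 6.75 and below it in the other two. From 6 to 6.75 on plastic it was 18.9% (14 of 74), beside 13.2%.

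**Figure D2:**
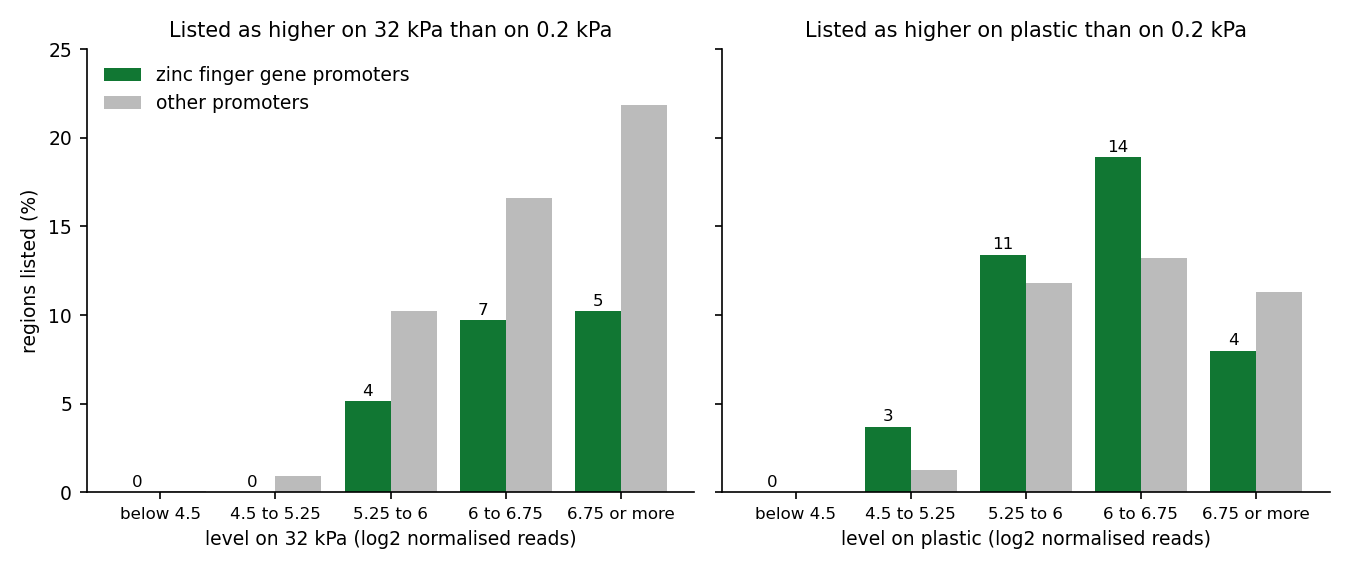
Share of regions listed as higher than on 0.2 kPa, in percent, in 5 bins of level (log2 normalised reads) on 32 kPa and on plastic. That level is also part of the difference that decides listing, which favours small shares in the low bins. Dark bars are zinc finger promoters, with the number listed above each, and grey bars are other promoters; the dark bars are lower in the 3 upper 32 kPa bins, where any member was listed, and higher in the 3 middle plastic bins.

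The direct comparison of 32 kPa with plastic covers all 367 members and was not used to list them. No member passed an FDR of 0.05, nor did any of the 64217 regions (0% of members, of other promoters and of all regions), because every FDR in the authors' deposited DiffBind table was 1. At an unadjusted p of 0.05 or below the authors' deposited table held 0 members. Among other promoters 14 were higher on plastic (0.115%) and 23 on 32 kPa (0.189%), among all promoters the same 14 (0.111%) and 23 (0.183%), and among all regions 245 (0.382%) and 125 (0.195%).

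Zinc finger promoters had the same median level on both stiff cultures. The members' median level was 5.42 on 32 kPa and 5.42 on plastic, beside 5.27 and 5.27 for other promoters and 4.17 and 4.24 for all regions. Median widths were 266 bases for members, 254 for other promoters and 177 for all regions. Member levels ran from 2.13 to 8.61 on 32 kPa and from 2.75 to 8.67 on plastic. The median of plastic minus 32 kPa was 0.05 for members, with 60% of regions above 0, beside -0.01 and 47.4% for other promoters. Over all regions it was 0.05, with 55% above 0, so the members' median equals that of the whole table. The members' middle 50% ran from -0.08 to 0.23, and 2 of 367 reached 1 in size.

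Those 2 were weak regions. Zfp804a was the highest, at 2.13 on 32 kPa and 3.17 on plastic in the authors' deposited table (1.04, p = 0.291 by DiffBind), in a region 124 bases wide. Zfp142 was the lowest, at 3.98 and 2.88 in the authors' deposited table (-1.10, p = 0.143 by DiffBind). The next highest in the authors' deposited table were Zfp974 (0.95), Zfp672 (0.86), Zfp462 (0.77) and Zkscan6 (0.73), all below 5 on both cultures. The next lowest there were a region of Zfp57 (-0.81), Zfp65 (-0.66), Zfp384 (-0.64) and Zfp526 (-0.52).

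The strongest promoters were nearly level between the cultures. Zfp78 stood at 8.61 on 32 kPa and 8.67 on plastic (711 bases wide), Zfp869 at 8.14 and 8.34 (467 bases), and Zfp444 at 8.03 and 8.09 (594 bases). Zfp317 stood at 7.94 and 7.91 (570 bases) and Zfp386 at 7.93 and 7.86 (656 bases). The weakest besides Zfp804a and Zfp462 were Zfp3, Zfp429 and Zfp133-ps, at 2.88 to 2.92 on 32 kPa and 3.46 to 3.58 on plastic. Within members the difference was larger at low levels: the median was 0.23 in the 92 regions below 4.5 on 32 kPa and 0.00 in the 49 at 6.75 or more. Binning by the 32 kPa level favours a positive difference in the lowest bin, and other promoters followed the same course, from 0.15 to -0.09. Binned by the plastic level, the members' medians fell from 0.12 to 0.02 and those of other promoters lay between -0.06 and 0.05.

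**Figure D3:**
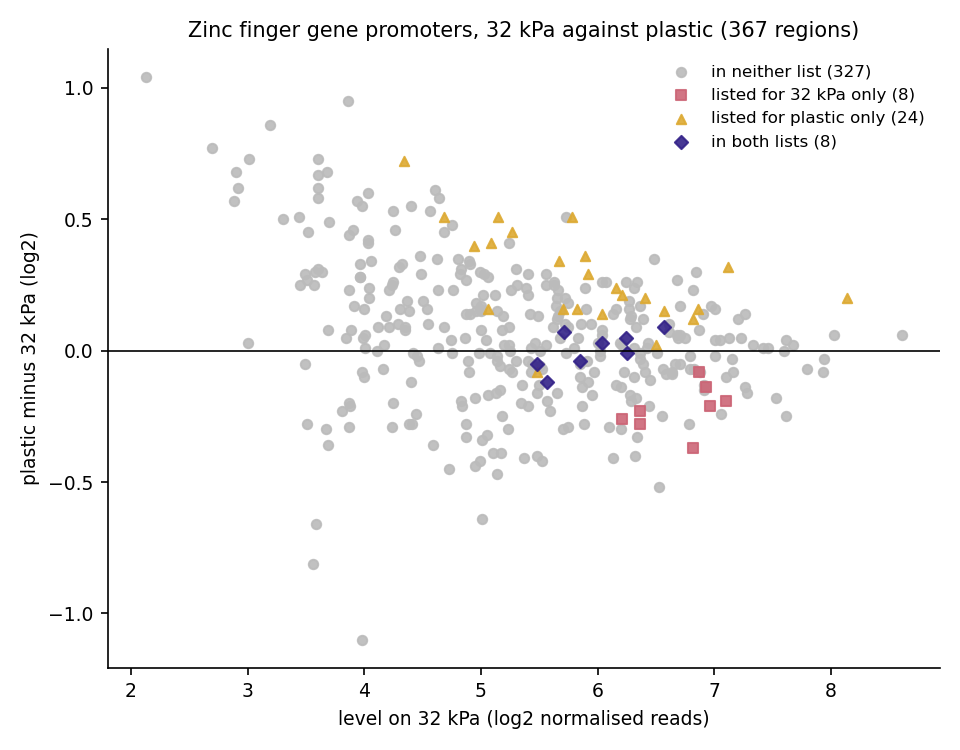
Difference between plastic and 32 kPa (log2, vertical axis) against the level on 32 kPa (log2 normalised reads) for the 367 zinc finger promoter regions, one point per region. Squares, triangles and diamonds mark regions listed for 32 kPa alone, plastic alone or both; the spread is widest below a level of 4.5, and 2 points reach 1 in size.

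Several member genes had more than 1 promoter region: 37 genes had 2, 8 had 3 and Zfp219 had 4. The regions of a gene differed in level, by 3.82 on 32 kPa for Zfp672 (3.19 and 7.01) and by 0.12 over the 3 regions of Zfp65.

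Across the role lists below, 2 of 45 member regions were listed for 32 kPa (4.44%, beside 4.36% of all members) and 1 for plastic (2.22%, beside 8.72%), and each list is too small to be read against those shares. Of the RNA-binding genes, Zfp36, Zfp36l1 and Zfp36l2, which speed the decay of AU-rich messages, the 4 regions lay at 4.86 to 6.45 on 32 kPa and 4.91 to 6.34 on plastic, and 0 were listed. The GATA cofactor genes differed in level: Zfpm1 (FOG1) stood at 7.60 on both cultures in a region 831 bases wide, and Zfpm2 (FOG2), a partner of Gata4 in mesenchyme, at 5.24 and 5.65. Neither was listed.

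Of the genes that silence imprints and retroelements, 5 of 6 had a promoter region, and 0 of the 6 regions were listed, a number too small to set beside the members' shares. Zfp57, which keeps imprints, stood at 4.96 on 32 kPa and 5.11 on plastic in the region next to its TSS, and its partner in that role Zfp445 at 4.82 and 5.11. Zfp809, which silences murine leukaemia virus, stood at 5.24 and 5.27. Zfp568 had the highest level of the group, at 6.34 and 6.60, and Zfp932 followed at 6.16 and 6.32. Zfp708 had no promoter region.

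Of 5 genes tied to mesenchymal or fat cell fate, Zfp423 and Zfp467 had no promoter region. Zfp521, listed for 32 kPa, had 6.82 there and 6.45 on plastic. Zfp516, known from brown fat, had regions at 4.96 and 5.34 on 32 kPa, both at 5.14 on plastic, and Zfp703 had a stronger region at 6.29 and 6.10. No promoter region of these 2 genes was listed.

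Among 10 widely expressed regulators, 9 had a promoter region, and only Zfp24 and Zfp281 had a promoter region that was listed. Zfp143 had the highest level, at 6.88 on 32 kPa and 6.81 on plastic. Zfp410, an activator of Chd4, stood at 3.94 and 4.51, and Zfp335 lay at 3.96 and 4.29. Zfp217 was the weakest, at 3.49 and 3.78, with Zfp207, a spindle protein gene, at 4.62 and 4.97. Zfp148 had regions at 4.37 and 4.73 on 32 kPa, and Zfp91 had none.

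Of the genes with a Zkscan or Zscan symbol, whose products pair through the SCAN domain, 13 had 15 regions. SCAN-domain genes under other symbols, such as Zfp24, which was listed for 32 kPa, are not counted here. Of the 15 regions 0 were listed for either culture, beside 4.36% and 8.72% of all members. They are too few to read against those shares. Their levels ran from 3.60 to 7.80 on 32 kPa, led by Zkscan5 (7.80 and 7.73 on plastic), Zscan20 (7.33 and 7.35), Zscan22 (6.59 and 6.51) and Zscan12 (6.51 and 6.51). Zkscan3, a repressor of autophagy genes, stood at 4.03 and 4.45. The median of plastic minus 32 kPa over the 15 was -0.01, beside 0.05 for all members.

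The genes whose products the KRAB proteins recruit are no members, and were counted beside them. Of 18 such genes 16 had 22 promoter regions. Daxx, a histone chaperone gene, and Dnmt1, the maintenance DNA methyltransferase gene, were listed for 32 kPa, at 1.01 (FDR 0.00528) and 1.0 (FDR 0.0443) in the authors' deposited table, and 0 of 22 for plastic. The 2 of 22 are 9.09%, close to the 7.69% of all promoters listed for 32 kPa, and the share of all promoters listed for plastic was 6.56%. Trim28, the corepressor itself, stood at 5.65 on 32 kPa and 5.40 on plastic in the region next to its TSS and was in neither list.

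Zinc finger promoters were gathered on a few chromosomes. Chromosome 7 held 91 of the 367 regions (24.8%, beside 7.72% of all promoters), chromosome 17 held 48 (13.1%, beside 4.75%) and chromosome 13 held 41 (11.2%, beside 4.13%). On chromosome 17 the members' median of plastic minus 32 kPa was 0.13 and on chromosome 13 it was 0.10, while that of other promoters there was -0.01 and 0.00. On chromosome 7 it was 0.04, beside -0.03.

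Members with many neighbours of the same kind lay further towards plastic. Without another member gene within 250 kb, the median of plastic minus 32 kPa was 0.03 (154 regions, 52.6% above 0). With 1 to 5 neighbours it was 0.06 (151 regions, 63.6%), and with 6 or more 0.13 (62 regions, 69.4%). In all, 4 window sizes were tried, and from no neighbours to 6 or more the medians went from 0.03 to 0.16 at 100 kb, 0.00 to 0.09 at 500 kb and 0.02 to 0.07 at 1000 kb. Listing for plastic went from 7.14% with no neighbour (11 regions) to 9.93% (15) and 9.68% (6). Beside these stood 8.72% of all members, 6.49% of other promoters and 3.3% of all regions. Listing for 32 kPa was 4.55% (7 regions), 4.64% (7) and 3.23% (2) in the same order. Beside these stood 4.36% of all members, 7.79% of other promoters and 3.31% of all regions. The counts are too small to be read as a trend. Neighbours share sequence and position, and no test was made; reads shared between near-identical copies were not assessed.

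**Figure D4:**
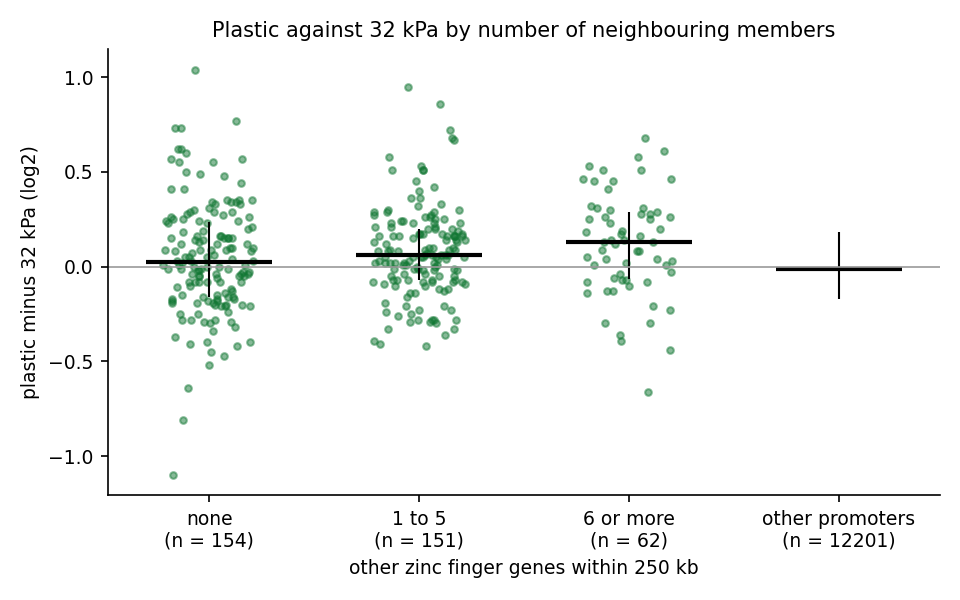
Difference between plastic and 32 kPa (log2) for zinc finger promoters with 0, 1 to 5, or 6 or more other member genes within 250 kb, one point per region. Thick bars are medians and thin bars the middle 50% of regions; the last column gives these for 12201 other promoters, and the medians are 0.03, 0.06, 0.13 and -0.01.

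Of the promoters listed for plastic, 4 lay in one run of 7 member genes on chromosome 17 (chr17:32787964-33089661), singled out after its values were seen. Levels on 0.2 kPa are from the comparison of 0.2 kPa with plastic, the others from that of 32 kPa with plastic. Region bounds can differ between them: for Zfp799 the widths were 250 and 220 bases. Zfp799 stood at 5.20 on 0.2 kPa, 5.89 on 32 kPa and 6.25 on plastic, and Zfp870 at 4.60, 5.15 and 5.67. Zfp952 stood at 4.09, 5.09 and 5.49, and Zfp563 at 5.28, 5.78 and 6.28. In all 4 the 32 kPa level lay between the other two, and 0 were listed for 32 kPa. Listing for plastic alone favours this order, so it follows in large part from the choice of regions. Of the 8 regions of the run 4 were listed for plastic, beside 8.72% of all members. The run was ended by a gap of more than 250 kb, and the next member beyond it, Zfp81, was listed for both cultures. The unlisted Zfp811 and Zfp763 and the stronger Zfp871 region differed by 0.04 to 0.09 between plastic and 32 kPa, and the weaker Zfp871 region by -0.28. Longer runs had fewer listed: of 18 genes on chromosome 13 only Zfp729a, and of 16 genes in another run on chromosome 17 only Zfp983, was listed for plastic.

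**Figure D5:**
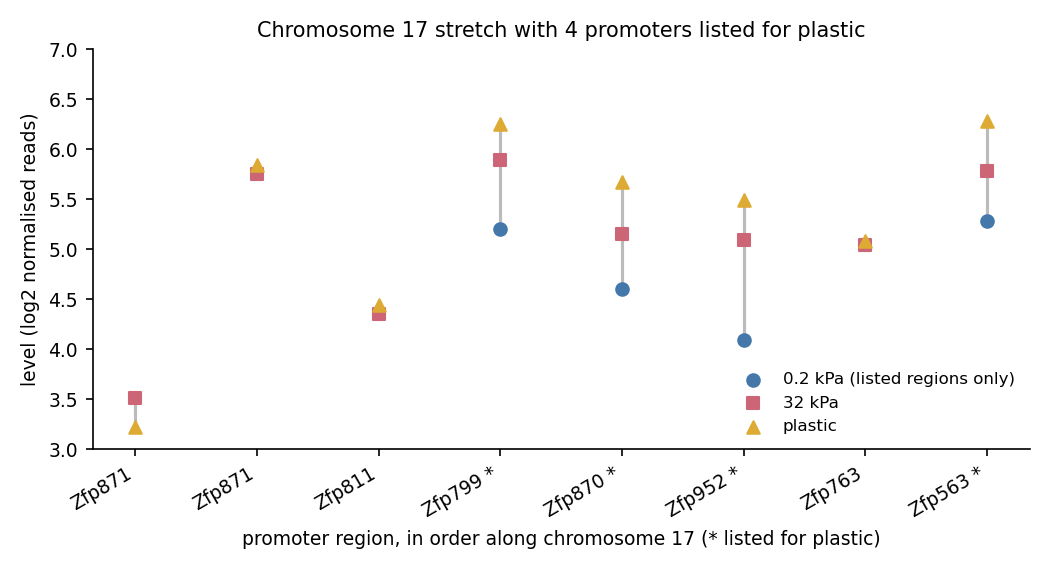
Levels (log2 normalised reads) of the 8 promoter regions of 7 neighbouring zinc finger genes on chromosome 17, in order along the chromosome. Circles are 0.2 kPa (given for listed regions only), squares 32 kPa and triangles plastic. Circles come from the comparison of 0.2 kPa with plastic, squares and triangles from that of 32 kPa with plastic, so region bounds can differ. In the 4 regions marked as listed, plastic is highest and 0.2 kPa lowest, an order that the listing itself favours.

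The promoter windows differed from those of other genes in base composition. RefSeq windows of 300 bases (250 upstream of the TSS and 50 downstream) overlapped a member of the same gene for 243 of 311 genes, giving 277 windows, beside 9008 for other genes. Median GC content was 55.3% in members and 62.3% in other promoters, and the median number of CpG was 16 and 22. A start on the opposite strand within 1000 bases upstream was found for 11.6% of member windows, beside 16.2%.

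The difference between plastic and 32 kPa moved with CpG count among members. In the 87 windows with 10 CpG or fewer the median was 0.16 with 74.7% above 0, beside 0.02 and 52% in other promoters of that CpG count. From 11 to 18 CpG it was 0.05, beside -0.01, and with 19 or more -0.03, beside -0.03. In 3 groups of equal size, the split tried first, the members' medians were 0.14, 0.05 and -0.03. Of the windows with 10 CpG or fewer, 2 lay at regions listed for 32 kPa (2.3%, beside 5.07% in other promoters) and 10 at regions listed for plastic (11.5%, beside 5.82%). From 11 to 18 CpG the shares were 4.44%, beside 7.82%, for 32 kPa and 8.89%, beside 6.86%, for plastic. With 19 or more they were 6%, beside 10.1%, and 9%, beside 7.48%. The members' share was thus lower for 32 kPa and higher for plastic in every CpG bin. The parts of CpG content, clustering and level in these differences were not tested.

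In all, 10 motifs were searched on both strands of the 300 bases, and a match is a description of letters only. GGGCGG, the GC box of Sp and KLF factors, was in 45.5% of member windows, beside 71% of other promoters and 35.7% of all 32851 RefSeq windows. CCAAT was in 48.4% of members, beside 40.4% and 37.4%. This turned with CpG count: it was in 65.5% of members and 44.1% of other promoters with 10 CpG or fewer, and in 31% and 37.4% with 19 or more. Among the 27 windows listed for plastic 19 held CCAAT (70.4%), and among the 12 listed for 32 kPa 6 did (50%), beside 46.7% of members in neither list; this contrast was picked from the 10 motifs after the counts were seen.

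ACTACA, added after the printed promoters had been read, was in 73 of 277 member windows (26.4%), beside 10.3% of other promoters and 10.3% of all windows. With 1 window per gene it was in 28.4% of members and 10.5% of other promoters. Among windows with 10 CpG or fewer it was in 39.1% of members and 14% of others, from 11 to 18 CpG in 31.1% and 16%, and with 19 or more in 11% and 7.68%. It was in 26% of the members in neither list, in 6 of 12 windows listed for 32 kPa (50%) and in 8 of 27 listed for plastic (29.6%), and no test was made. The 12 windows belonged to 9 genes and the 27 to 23. The printed promoters that prompted the motif are themselves listed members, so the listed shares are counted partly on them and give no separate evidence. Many member genes are copies of one another, so their windows are not independent.

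Without a split by CpG count, the remaining 7 motifs differed by less between members and other promoters. CCGGAAG, an ETS site, was in 23.1% of members and 19.4% of other promoters. GGAATG, a TEAD site, was in 13.4% and 11.3%, and TGANTCA, an AP-1 site, in 3.97% and 4.78%. CTGGGCA, a string from the motif of ZNF416, was in 7.94% of members, 7.87% of other promoters and 8.06% of all windows. TGACGTCA (CREB) was in 3.61% and 3.67%, GCGCATGCG (NRF1) in 6.14% and 4.11%, and AANATGGCG (YY1) in 7.22% and 5.42%. Some of these gaps moved with CpG count. With 10 CpG or fewer the AP-1 site was in 4.6% of members and 14.6% of others. From 11 to 18 CpG it was in 7.78% and 5.37%, and with 19 or more in 0% and 2.8%. The ETS site was in 18.4% and 6.95%, 25.6% and 19.3%, and 25% and 21.6% in the same order.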

How the data were processed

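Omni-ATAC-seq was read to 51 bp from both ends, in 6 libraries grouped by the culture in their labels. BWA, Picard, MACS2, DiffBind and the build mm10 are named in the submitters' processing notes, without versions or settings; transposase shifting, peak merging and scaling are not given in the sources used here. The authors deposited 3 tables of culture pairs, in which levels and differences are log2 values in the layout of a DiffBind report, per the file headers. Each deposited p-value and each FDR was computed by the authors, and gene names, TSS distances and annotations follow the layout of HOMER, per the file headers. The tables against 0.2 kPa name their sides Control and Treat. At 643 intervals identical to those of the named table the Control level equalled that of 32 kPa, and at 653 it lay 0.01 to 0.02 above that of plastic, so Control was read as the stiffer culture. One repeated header row was dropped.

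Regions were matched between tables by an overlap of at least 1 base, with Python 3.11.15, pandas 2.3.3 and numpy 2.4.6; matching and motif search were tested on simulated data. No test was run beyond the authors', since the tables hold culture means only; library depth is unknown. Named genes were the 15 largest differences in each table against 0.2 kPa (all where it held 15 or fewer), the 5 highest and 5 lowest by difference and by level between 32 kPa and plastic, and the role lists; genes named besides these were chosen after their values were seen. The members and lists were chosen with earlier results of these data known, and level bins, CpG bins, neighbour windows and the ACTACA motif after seeing the values. RefSeq promoter windows were matched by gene ID and overlap, for 255 of 367 regions; windows were first matched by symbol alone. Region starts are 1-based. The sequences shown exclude chromosome 18 and a Zfp46 region that no window covered well. Alternatives were stricter FDR and fold limits, other promoter and prefix definitions, a level floor, 1 region per gene and other overlaps.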

Additional observations from a re-analysis of the deposited data

How the results depend on the processing

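The members' median of plastic minus 32 kPa, and the excess with many neighbours, stayed above 0 under the alternatives run. Counts and levels have no sign, so they could not reverse. With an FDR of at most 0.01 the members listed were 8 for 32 kPa, 14 for plastic and 2 in both lists, in place of 16, 32 and 8; these are 50% and 43.8% of the members in each list, beside 46.2% and 48.2% of the other promoters in it. With a difference of at least 1.2 they were 4 for 32 kPa (1.09% of members, beside 1.14% of other promoters) and 9 for plastic (2.45%, beside 1.12%), so the gap seen for 32 kPa at the wider limit was nearly gone. Above the lowest listed level the members' median of plastic minus 32 kPa was 0.02, beside -0.05 for other promoters, and the median levels were 6.02 on 32 kPa and 6.03 on plastic. Taking every region within 1000 bases of a TSS gave median levels of 5.255 and 5.305, and the strongest region per gene gave 5.62 and 5.70. The excess of members with 6 or more neighbours over those with none was 0.10 at 250 kb and 0.13, 0.09 and 0.06 at 100, 500 and 1000 kb. Leaving out chromosome 7, 13 or 17, or the listed regions, all added after seeing the data, left the median difference between 0.05 and 0.06. No paired analysis was possible because the tables hold 1 mean per culture and no column per library. Leaving out each replicate in turn was not run for the same reason. With 2 libraries per culture and unknown depth, precision rests on the authors' FDR alone.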

Other observations

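Regions outside promoters were counted too, for every gene with these prefixes. This took in genes with no member region, such as Zfp74. In the table of 32 kPa against plastic, 676 such regions of 245 genes were found, 364 intergenic and 262 intronic, assigned to these genes as the nearest TSS. Of these 22 were listed for 32 kPa (3.25%, beside 2.24% of other regions outside promoters) and 25 for plastic (3.70%, beside 2.49%). Zfp521 had an intergenic region, 55784 bases upstream of its TSS by the annotation, listed for both: 4.75 on 0.2 kPa and 6.22 on 32 kPa (1.47, FDR 0.00259), and 4.72 and 5.94 on plastic (1.22, FDR 0.00845), in the authors' deposited tables. An intronic region of Zfpm2 stood at 4.22 and 5.67 on 32 kPa (1.45, FDR 0.00819), and at 4.19 and 5.49 on plastic (1.30, FDR 0.0157), in the authors' deposited tables, while the Zfpm2 promoter was unlisted. Some other genes of the role lists with no listed promoter also had a listed region outside it. These included Zfp335 (intronic, 493 bases past the TSS) and Zfp36 for 32 kPa. For plastic they included Zfp703, Zkscan5 and Zscan22, and Zfp410 had such a region in both lists. These genes were picked after their values were seen.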
